A study of Homo sapiens with 5 samples.

Results

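The genes described here build, load and drive the DNA replication fork: the origin recognition and licensing factors, the MCM helicase and its activators, the replicative polymerases, the sliding clamp loader, the single-strand binding proteins, the nick-sealing and strand-untangling enzymes, and the fork protection and chromatin assembly factors. They were chosen by a rule on gene symbols, set with earlier results of these data known. By this rule 54 of the 6309 genes in the authors' deposited table were members. Of 60 symbols that the choice was written for, ORC1, MCM3, DBF4B, POLD4, PCNA and RPA2 were not analysed here. The measured quantity was translation efficiency, that is, ribosome footprints on an mRNA set against its abundance. The cells were HL-60, a cell line long established from a human promyelocytic leukaemia and labelled WT. Decitabine-treated cells received 100 nM of the drug at 0, 24 and 48 hours. Control cells received the solvent DMSO, and both were lysed at 72 hours. By the labels there were 2 total RNA libraries with decitabine and 2 with DMSO, and 1 library of ribosome-protected fragments, labelled as pooled. How its footprints were assigned to treatments and replicates in the authors' model is not stated.

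The replication machinery works in a fixed order. In G1 phase the origin recognition complex (ORC), with CDC6 and CDT1, loads the MCM ring onto DNA. In S phase kinases activate the ring by adding CDC45 and the GINS complex, and polymerases alpha, delta and epsilon then copy the unwound strands. Decitabine is a deoxycytidine analogue that is built into new DNA by these polymerases and there traps DNA methyltransferases, so its known action depends on replication.

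Each gene had 1 coefficient for the drug in the authors' deposited table, with its p-value, and no value per library. The coefficient was taken as a natural log, as R reports such models, although the log base is not stated. A positive value means higher translation efficiency with decitabine than with DMSO. Every error given is a standard error (SE) implied by the authors' p-value, and 95% intervals use it. These errors hold only what the authors' model counted. Separate cultures are not stated for the duplicate wells, so the p-values cover no more than the variation among these libraries, which may be technical. The depth of the libraries is unknown. All 10 promyelocyte markers looked for were in the table, and none of the 5 erythroid and 5 lymphoid markers was.

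Among the replication genes 1 rose in translation efficiency with decitabine, and 53 had no called change. That gene was MCM4, a subunit of the replicative helicase ring, and the call did not hold once the median coefficient of all genes, which was above 0, was subtracted: then 0 of 54 members passed (adjusted p = 0.129 for MCM4 from the authors' deposited values). By the adjusted p of the authors' deposited table, with a threshold of 0.05, 1 of 54 replication genes was higher with drug (1.85%), where 0.634% of all genes were. None of the 54 was lower, where 0.174% of all genes were. Before adjustment, 8 members had a higher coefficient with p below 0.05 (14.8%), against a background of 8.35% of all genes, and 1 had a lower one (1.85%), against a background of 1.95%.

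The members had a smaller median implied SE than all genes, and genes with a small implied SE more often had an unadjusted p below 0.05. The implied SE had a median of 0.18 over the members and 0.25 over all genes. Among genes with an implied SE no larger than the members' median, 6 of 27 members were higher at an unadjusted p below 0.05 (22.2%), where 16.8% of all such genes were, and 0 members were lower, where 2.89% were. On the higher side the share of members was 1.77 times that of all genes without this match and 1.32 times with it. With the match and the all-gene median subtracted, 2 of 27 members were higher (7.41%), where 6.31% of such genes were. Then 0 members were lower, where 7.03% were.

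As a group the members sat almost where all genes sat. Their median coefficient was 0.11, and that of all genes was 0.09 in the authors' deposited table. Of the members, 39 were above 0 (72.2%), where 65% of all genes were, and 15 were below. The middle 50% of members lay between -0.07 and 0.21, against -0.08 and 0.26 for all genes. Because the median of all genes was above 0, each coefficient was also read after subtracting that median. Then 29 members were above and 25 below the median of all genes. No member passed after this centring, with adjusted p below 0.05 in 0.0793% of all genes on the higher side and 0.507% on the lower side. At an unadjusted p below 0.05 after centring, 2 members were higher (MCM4 and POLA1), or 3.7% against 3.69% of all genes, and 2 were lower (ORC4 and CDC6), or 3.7% against 4.25%.

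**Figure D1:**
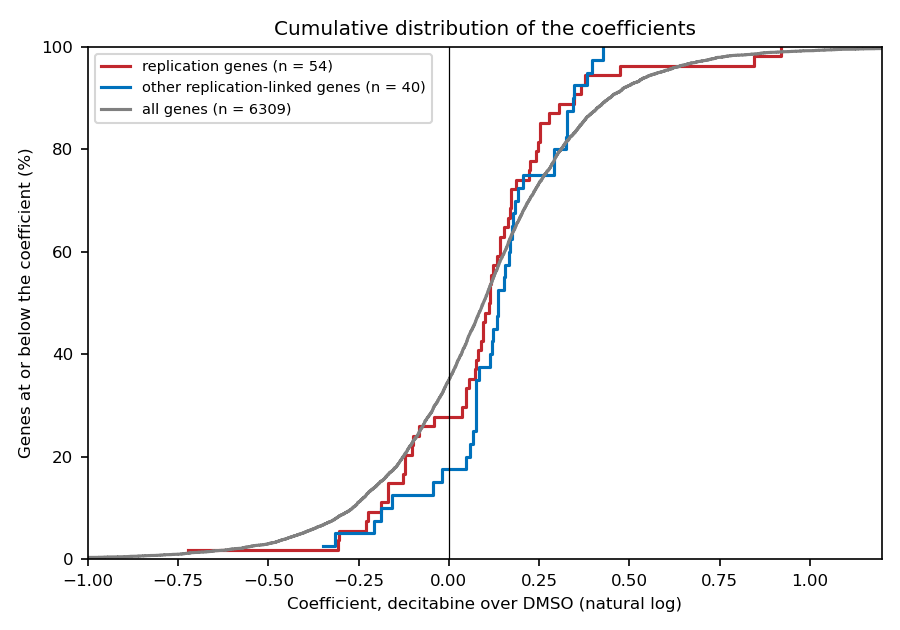
The share of genes in % (vertical axis) at or below each drug coefficient, decitabine over DMSO, on a natural log scale (horizontal axis), for the 54 replication genes, 40 other replication-linked genes and all 6309 genes. The curves of the members and of all genes cross near their medians of 0.11 and 0.09; 38 of all genes lie beyond the horizontal range.

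Some promoters of these genes hold a feature that the choice by symbol did not use. Many S-phase genes are known to be transcribed under E2F factors, whose binding word is commonly written as TTT, a pair of bases that are C or G, and CGC. RefSeq promoters on GRCh38.p14, from 250 bases before to 50 bases after the gene start, were available for 48 of the 54 members; MCM4, MCM5, GINS4, POLD3, RPA3 and DONSON were not searched. They were searched on both strands, overlaps allowed, for the 4 words TTTCCCGC, TTTCGCGC, TTTGCCGC and TTTGGCGC. At least 1 word was found in 19 member promoters (39.6%), in 6.51% of the 5145 promoters matched to genes in the deposited table, and in 3.33% of all 27305 promoters. Translation efficiency is measured relative to mRNA, so a promoter word is not a readout of this assay. The median coefficient was 0.17 for the 19 members with a word and 0.09 for the 29 without. The range was -0.30 to 0.85 with a word and -0.72 to 0.92 without.

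The windows below show such words, in capitals, for the members with the smallest p-values among the 48 searched that hold at least 1, for MCM6, whose promoter holds 4, and for CDC6, a member with a coefficient below 0. Each runs 5′ to 3′ on the gene's own strand.
POLA1: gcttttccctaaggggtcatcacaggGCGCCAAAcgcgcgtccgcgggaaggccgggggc
MCM2: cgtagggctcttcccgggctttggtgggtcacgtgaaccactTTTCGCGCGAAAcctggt
POLE: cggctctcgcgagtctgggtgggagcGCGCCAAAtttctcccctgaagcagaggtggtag
MCM7: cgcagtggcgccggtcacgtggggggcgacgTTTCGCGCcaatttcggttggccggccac
GINS3: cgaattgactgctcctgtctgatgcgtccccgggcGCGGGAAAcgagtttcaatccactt
MCM6: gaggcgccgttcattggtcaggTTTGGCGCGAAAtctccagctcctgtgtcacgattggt
CDC6: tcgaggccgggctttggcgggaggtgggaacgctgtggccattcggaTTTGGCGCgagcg
These windows lie at chrX:24693755-24693814 (plus strand) for POLA1, chr3:127598371-127598430 (plus) for MCM2, chr12:132687327-132687386 (minus) for POLE and chr7:100101378-100101437 (minus) for MCM7. Those of GINS3, MCM6 and CDC6 lie at chr16:58392431-58392490 (plus), chr2:135876496-135876555 (minus) and chr17:40287839-40287898 (plus). In MCM2 the word TTTCGCGC overlaps its own reverse complement in the run TTTCGCGCGAAA. In MCM6 the run TTTGGCGCGAAA is TTTGGCGC overlapping the reverse complement of TTTCGCGC.

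Translation efficiency can depend on how an mRNA begins. Transcripts of ribosomal proteins start with a C followed by a run of pyrimidines, the terminal oligopyrimidine (TOP) motif. An annotated start of C followed by at least 4 pyrimidines was found for 2 of 48 members (4.17%), for 5.83% of the promoters matched to the deposited table and for 4.04% of all promoters. The members were MCM2, whose run is the 6 bases CTTTTC and overlaps the E2F word shown above, and CDT1, whose run is 19 bases long. The start of CDT1, from 10 bases before the annotated start to 20 bases from it on, lies at chr16:88803779-88803808 on the plus strand, with the run in capitals.
CDT1: ccgcctcttcCTCCCTTCCTTCTTTCCTTg
The annotated starts need not be those used in HL-60 cells. The coefficients of these genes had opposite signs, 0.25 for MCM2 and -0.23 for CDT1 in the authors' deposited table, and neither passed.

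Origin recognition and licensing genes had the lowest median of all role groups. It was -0.23 over 7 measured genes, of which 4 were below 0 and 3 above, and none passed. That median is the value of CDT1, and the precision-weighted mean of the group was -0.16. The interval held 0 for 6 of the 7 and the median of all genes for 5. ORC4, a subunit of the ring-shaped core of the origin recognition complex, had the lowest coefficient of all 54 members. The authors' deposited table gave it -0.72 ± 0.23 (implied SE, p = 0.00148, adjusted p = 0.103). On a natural log scale this is 0.486 times the DMSO level, with a 95% interval from 0.311 to 0.758. With the all-gene median subtracted, its adjusted p was 0.0526, still outside the threshold. ORC4 (ENSG00000115947) spans 147930396 to 148021551 of chromosome 2 on GRCh38.p14.

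Of the other subunits of the complex, 3 were above 0 and 1 was below. By the authors' deposited table the coefficient was 0.24 for ORC2, 0.13 for ORC3 and 0.16 for ORC5, all parts of the same core. ORC6, the small subunit that joins the core more loosely in human cells, had -0.31 there. Taking 2 coefficients as independent, the difference of ORC4 minus ORC2 was -0.96 (95% interval -1.61 to -0.31). That of ORC4 minus ORC3 was -0.86 (-1.46 to -0.26) and that of ORC4 minus ORC5 was -0.89 (-1.59 to -0.19). For ORC4 minus ORC6 it was -0.41 (-1.10 to 0.27), an interval that holds 0. These are unadjusted intervals for a gene looked at because it was lowest.

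The licensing factors CDC6 and CDT1 were also below 0 without passing. CDC6, the ATPase that works with ORC to load the MCM ring, had, by the authors' deposited table, -0.30 ± 0.18 (implied SE, p = 0.0925, adjusted p = 0.576). CDT1, which brings the MCM ring to the origin, had an interval from -0.65 to 0.20. For both genes the interval holds 0, and the values leave room for no change as well as for a drop. The interval of CDC6, from -0.66 to 0.05, lies below the median of all genes, 0.09, and that of CDT1 holds it. After centring, CDC6 had an adjusted p of 0.546.

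The replicative helicase ring was the best-measured group and lay above 0 in every measured subunit, where 65% of all genes did. Of all genes with an implied SE of 0.07 to 0.16, 76.5% were above 0. The interval held the median of all genes for 4 of the 5 subunits, all but MCM4. MCM2, MCM4, MCM5, MCM6 and MCM7 had implied SEs between 0.08 and 0.10, a median coefficient of 0.17 and a precision-weighted mean of 0.21. That mean was 0.12 over all members and 0.09 over all genes. MCM4, which carries one of the ATPase sites of the ring, rose, by the authors' deposited table, with 0.35 ± 0.08 (implied SE, p = 6.66e-06, adjusted p = 0.00262). That is 1.41 times the DMSO level on a natural log scale (95% interval 1.22 to 1.64). By p-value MCM4 ranked 16 of 6309 genes. With the all-gene median subtracted, its coefficient was 0.25 and its adjusted p 0.129, so the call ended.

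The other ring subunits had smaller coefficients than MCM4 and none passed. MCM2, whose tail also binds histones, had, by the authors' deposited table, 0.25 ± 0.09 (implied SE, p = 0.00587, adjusted p = 0.193). MCM7 had, by the authors' deposited table, 0.17 ± 0.08 (implied SE, p = 0.0309, adjusted p = 0.41). MCM6 had, by the authors' deposited table, 0.14 ± 0.08 (p = 0.0886, adjusted p = 0.569), with an interval that holds 0. MCM5, the partner of MCM2 at the gate through which DNA enters the ring, had the smallest value of the ring, 0.07 (95% interval -0.12 to 0.27). Among the 10 pairs of ring subunits, the difference excluded 0 only for MCM4 minus MCM5, at 0.27 (0.03 to 0.52, unadjusted). The other 9 intervals held 0, so those pairs could not be told apart at this precision. MCM4 and MCM5 had the highest and the lowest coefficient of the ring. Theirs is therefore the widest of the 10 differences, and no adjustment for picking it was made. Only MCM5 lay below the median of all genes.

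MCM4 (ENSG00000104738) spans 47960941 to 47978160 of chromosome 8 on GRCh38.p14. A neighbouring protein-coding gene, on the side of lower coordinates, is PRKDC. It encodes the large kinase DNA-PKcs, known from DNA break repair, and is not a member. PRKDC ends at 47960136, and 804 bases lie between the annotated spans. PRKDC was looked at for its position after its value was known, and the gene on the other side of MCM4 was not looked at. PRKDC had, by the authors' deposited table, 0.20 ± 0.05 (implied SE, adjusted p = 0.00856) and ranked 19 by p-value. After centring its adjusted p was 0.548.

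**Figure D2:**
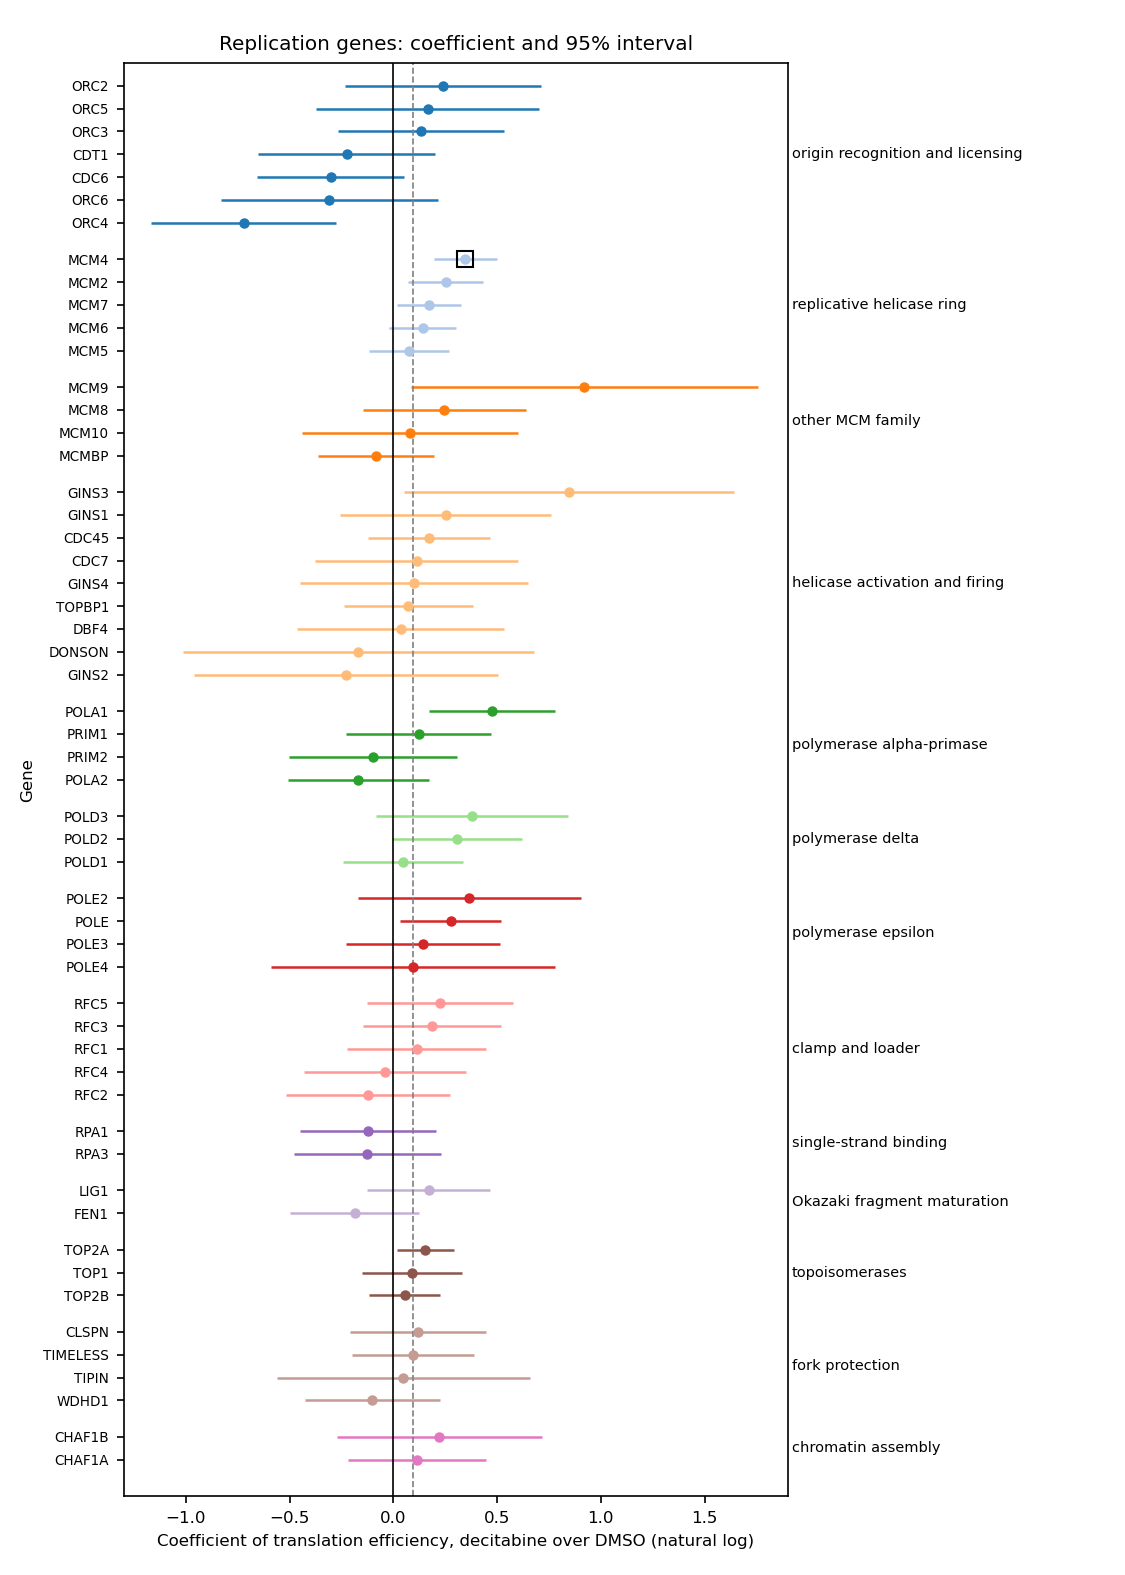
Drug coefficient of each of the 54 replication genes, decitabine over DMSO on a natural log scale (horizontal axis), grouped by role, with bars for the 95% interval from the implied SE; the solid line marks 0 and the dashed line the median of all genes, 0.09. MCM4, boxed, was the member with an adjusted p below 0.05, and the interval of ORC4 lies wholly below 0.

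The other genes with MCM in their symbol were less precise than the ring subunits. MCM9, which works with MCM8 in recombination repair, had, by the authors' deposited table, the highest coefficient of all members, 0.92 ± 0.43 (implied SE, p = 0.0313, adjusted p = 0.411). Its interval ran from 0.08 to 1.76. MCM8 had 0.25 (95% interval -0.15 to 0.64). MCM10, which aids activation of the helicase, had 0.08 (-0.44 to 0.60), and MCMBP, which binds MCM subunits outside the ring, had -0.08 (-0.36 to 0.20). The SE of MCM9 was at the 92.3 percentile of the SEs of all genes.

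Helicase activation and firing genes had a median close to that of all genes. It was 0.10 over 9 measured genes, of which 7 were above 0. GINS3, 1 of 4 subunits of the GINS complex, had, by the authors' deposited table, 0.85 ± 0.41 (implied SE, p = 0.0375, adjusted p = 0.439). GINS1 had 0.25 (-0.26 to 0.76), GINS2 had -0.23 (-0.96 to 0.50) and GINS4 had 0.10 (-0.45 to 0.65). All 6 differences between GINS subunits had intervals that held 0. CDC45, the third part of the active helicase, had 0.17 (-0.12 to 0.47).

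The firing kinase and the loading factors did not pass, and their intervals all held 0. CDC7, the kinase that phosphorylates the MCM ring, had 0.11 (-0.38 to 0.60), and DBF4, its activating subunit, had 0.04 (-0.46 to 0.54). TOPBP1, which helps to bring in CDC45 and GINS and also activates the checkpoint kinase ATR, had 0.07 (-0.24 to 0.38). DONSON, which aids helicase assembly, had the largest implied SE of all members, 0.43, and a coefficient of -0.17 (-1.01 to 0.68).

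Polymerase alpha-primase, which starts each new strand with a short RNA-DNA primer, had members on both sides of 0. POLA1, its catalytic polymerase subunit, had, by the authors' deposited table, 0.47 ± 0.16 (implied SE, p = 0.00228, adjusted p = 0.133). This is 1.61 times the DMSO level on a natural log scale (95% interval 1.19 to 2.18), and it did not pass. POLA2, the accessory subunit, had -0.17 (-0.51 to 0.17). The primase subunits PRIM1 and PRIM2 had 0.12 (-0.23 to 0.47) and -0.10 (-0.50 to 0.31). Of the 6 pairs in this complex, 2 differences excluded 0 before any adjustment, both with POLA1, the highest of the 4 genes. POLA1 minus POLA2 was 0.64 (0.19 to 1.10) and POLA1 minus PRIM2 was 0.57 (0.07 to 1.08). The median of the 4 was 0.01.

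Polymerases delta and epsilon, which copy the lagging and the leading strand, were above 0 in every measured subunit, where 65% of all genes were. Against the median of all genes, 2 of 3 delta and 3 of 4 epsilon subunits were above, and the interval of every subunit held that median. For delta, POLD2 had, by the authors' deposited table, 0.31 ± 0.16 (implied SE, p = 0.0563, adjusted p = 0.499). POLD3, an accessory subunit, had 0.38 (-0.09 to 0.84), and the catalytic POLD1 had 0.05 (-0.24 to 0.34). For epsilon, the catalytic POLE had, by the authors' deposited table, 0.28 ± 0.12 (implied SE, p = 0.0255, adjusted p = 0.393). POLE2 had 0.37 (-0.17 to 0.90), and the histone-fold subunits POLE3 and POLE4 had 0.14 (-0.23 to 0.51) and 0.09 (-0.59 to 0.78). The medians were 0.31 over 3 delta subunits and 0.21 over 4 epsilon subunits. None of these genes passed, and no difference within either complex excluded 0 among 3 and 6 pairs.

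Clamp loader subunits showed no called change. Replication factor C opens the sliding clamp and closes it around DNA. Its 5 subunits had a median of 0.11, with RFC5 highest at 0.23 (-0.13 to 0.58) and RFC2 lowest at -0.12 (-0.52 to 0.27). RFC1, the large subunit, had 0.11 (-0.22 to 0.45), RFC3 had 0.19 (-0.15 to 0.52) and RFC4 had -0.04 (-0.43 to 0.35). All 10 pairwise differences had intervals that held 0.

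Single-strand binding and Okazaki fragment genes had coefficients on both sides of 0. RPA1 and RPA3, subunits of the trimer that coats unwound DNA, had -0.12 (-0.45 to 0.20) and -0.13 (-0.48 to 0.23). FEN1, the nuclease that trims the flaps of Okazaki fragments, had -0.19 (-0.50 to 0.12). LIG1, the ligase that then seals them, had 0.17 (-0.13 to 0.47). None of the 4 passed.

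Topoisomerases, which release the twist ahead of the fork, were among the most precise members. TOP2A, the form tied to dividing cells, had the smallest implied SE of all members. The authors' deposited table gave it a coefficient of 0.15 ± 0.07 (implied SE, p = 0.0268, adjusted p = 0.395), or 1.17 times the DMSO level on a natural log scale (95% interval 1.02 to 1.34). TOP2B, the form that non-dividing cells also express, had 0.05 (-0.12 to 0.23), and TOP1 had 0.09 (-0.15 to 0.33).

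Fork protection and chromatin assembly genes did not pass either. CLSPN, the mediator that passes the checkpoint signal to the kinase CHK1, had 0.12 (-0.21 to 0.45). TIMELESS and TIPIN, a pair that keeps helicase and polymerase coupled, had 0.09 (-0.20 to 0.39) and 0.05 (-0.56 to 0.66). WDHD1, which links polymerase alpha to the helicase, had -0.10 (-0.43 to 0.22). CHAF1A and CHAF1B, subunits of the factor that places histones on new DNA, had 0.11 (-0.22 to 0.44) and 0.22 (-0.27 to 0.71).

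Across these complexes most subunits could not be separated from their partners. Of 51 pairs of subunits within 7 complexes, the interval of the difference excluded 0 for 6, before any adjustment for the number of pairs. These were the pairs of ORC4, POLA1 and MCM4 named above, each the lowest or highest gene of its complex, so the 6 are not separate results. The share of such pairs among other genes was not worked out. Over all 54 members, the 95% interval held 0 for 45 (83.3%) and held the median of all genes for 50 (92.6%). Over all genes these shares were 89.7% and 92.1%.

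The members spread most widely among those measured least precisely. In the 18 most precise members, 16 were above 0 and the median was 0.15. All genes within the same range of implied SE, 0.07 to 0.16, had a median of 0.11, and 76.5% of them were above 0. The 18 members of middle precision had a median of 0.04 with 9 above 0, where 68.2% of genes of like precision were. In the 18 least precise members the coefficients ran from -0.72 to 0.92, with 14 above 0, against 60.9% of genes of like precision.

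**Figure D3:**
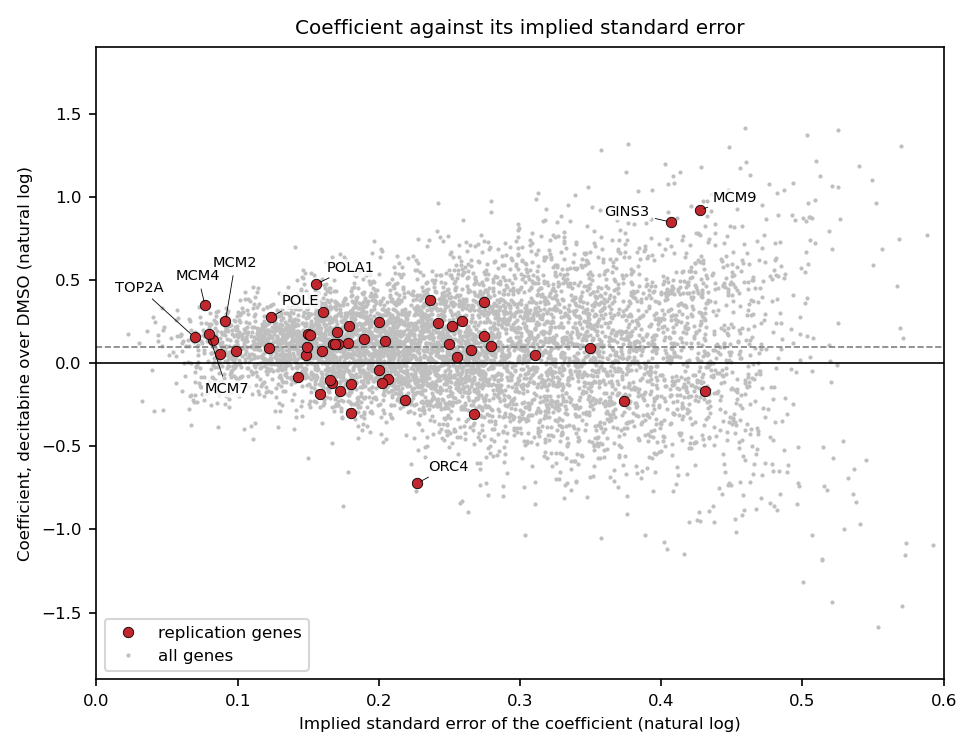
Drug coefficient, decitabine over DMSO (vertical axis), against its implied SE (horizontal axis), both on a natural log scale, for the 54 replication genes and all genes; the solid line marks 0 and the dashed line the median of all genes, 0.09, and 19 genes lie beyond the plotted range. Members with an unadjusted p below 0.05 are named: MCM4, MCM2, MCM7 and TOP2A sit at the precise end, and MCM9 and GINS3 combine the highest coefficients with implied SEs of 0.43 and 0.41.

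Genes that serve replication without being members included 1 call. Of 50 such genes listed, covering origin firing control, histone supply, nucleotide synthesis and mismatch repair, 40 were measured, with a median of 0.14. Of these, 33 were above 0 (82.5%), where 65% of all genes were, and 25 were above the median of all genes. The interval held that median for 39 of the 40 (97.5%), where it did for 92.1% of all genes. Only NASP, a chaperone that holds histones H3 and H4 before they reach DNA, rose: the authors' deposited table gave it 0.38 ± 0.11 (implied SE, adjusted p = 0.0481). NASP did not pass once the authors' deposited coefficients were centred (Benjamini-Hochberg adjusted p = 0.337 over all 6309 genes). This 1 higher call is 2.5% of the 40, where 0.634% of all genes were higher, and none of the 40 was lower. TONSL, which reads histones on newly copied DNA, had 0.33 (0.04 to 0.62, adjusted p = 0.402), and CCNA2, cyclin A of S phase, had 0.29 (0.02 to 0.56, adjusted p = 0.421), by the authors' deposited table. The others with the smallest p-values there were RIF1, a regulator of origin timing, with 0.21, RECQL4, a helicase, with 0.33, and RRM1, the large subunit of ribonucleotide reductase, with 0.18, and none of them passed.

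Some of these genes have annotated pseudogenes, which were looked for by name only, without comparing sequences. In the RefSeq annotation 11 of the 54 members have a pseudogene named after them, among them PRIM2, POLD2, FEN1, TOP1 and DBF4. The sources used here do not state how any reads common to a gene and its pseudogene were assigned, which leaves the values of these 11 uncertain. MCM4, ORC4 and POLA1 have no pseudogene of that kind in the annotation, though a copy under another name would have been missed.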

How the data were processed

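The submitters' processing notes name the build hg38 and the tools Bowtie2, SAMtools (1.11) and UMI-tools (1.1.1). The deposited table holds, per the file headers, 1 model coefficient for the drug per transcript, with p-values: raw, adjusted and as a q-value. No log base is stated; the deposited coefficient was taken as a natural log because its header carries R's names for a model coefficient. The sources used here do not give the program, count filter, library scaling or use of replicates. A Benjamini-Hochberg adjustment over 6309 genes gave back the deposited adjusted values (largest difference 6.61e-14).

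The implied SE is the coefficient divided by the z of its two-sided p-value. Centred p-values came from the coefficient minus the median of all genes and that SE, with Benjamini-Hochberg adjustment over all genes (Python 3.11.15, scipy 1.17.1). The calculation was tested on simulated data with independent normal errors and a shift common to all genes. Whether the shift in the real data is common to all genes was not tested. No set test was made. Members and lists were chosen with earlier results of these data known. Full values are given for calls and for the 12 members with the smallest p-values, and up to 6 other replication genes are named. All 54 members matched RefSeq by symbol. Settings tried instead were thresholds of 0.01 and 0.1, Benjamini-Yekutieli, the q-value, another centring and removal of the 25% least precise genes.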

Additional observations from a re-analysis of the deposited data

How the results depend on the processing

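The single higher call among the members, MCM4, and the absence of lower calls held at adjusted p thresholds of 0.01 and 0.1, with the Benjamini-Yekutieli adjustment, with the deposited q-value and without the 25% least precise genes. Once the authors' deposited coefficients were centred on the median, the higher calls numbered 0, with 0.25 for MCM4 (Benjamini-Hochberg adjusted p = 0.129 over all 6309 genes). Centring the authors' deposited coefficients on their precision-weighted mean gave 0 as well, with 0.26 (adjusted p = 0.113). Both follow from the shift of every coefficient. ORC4 did not pass under any of these settings at its own threshold (adjusted p from 0.0526 to 0.965). The members' median of 0.11 became 0.0172 after centring on the median and 0.0226 after centring on the precision-weighted mean, and the share above 0 fell to 53.7% after centring on the median, against 72.2% as deposited. The median was 0.11 without MCM4, a choice made after seeing the data, as was the match on precision. No paired analysis was possible because the table holds no value per library, and leaving out a replicate was not run for the same reason. Implied SEs of up to 0.43 limit what can be seen for single members.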
